A study of Mus musculus with 36 samples.

Results

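Gene expression in the colon of Il17rc knockout mice (KO) was compared between day 15 and day 7 of a colitis and tumor protocol. The groups were taken from the sample titles, 4 arrays of KO colon at day 15 and 4 arrays of KO colon at day 7, so 8 of the 36 arrays of the series, and all 17097 genes with a probe set of their own were tested. Per the labels, KO mice without IL-17RC and wild-type mice (WT), 6 to 8 weeks old at the start, were given the colon carcinogen azoxymethane, followed by 3 cycles of drinking water with 3% dextran sulfate sodium (DSS). A cycle was 5 days of DSS and 14 days of plain water. The labels attach this full protocol to all 36 arrays, and do not state how much of it preceded day 7 or day 15. Counted from the start of the first cycle, both days would fall before its end. All KO and WT mice described here at day 15 and day 7 had azoxymethane and DSS, so untreated colon is not the baseline of the comparison. The remaining groups were WT colon at day 15 and day 7 (4 arrays each), KO and WT tumors (6 each) and untreated KO and WT colon (4 each). The labels give neither the strain, the exons removed, the hour of sampling, the hybridization batch nor the day from which days were counted, and they name no promoter or Cre for the knockout. The labels do not state that each array is a separate animal, so the p-values reflect the spread of these samples only.

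IL-17RC pairs with IL-17RA to form the receptor of IL-17A and IL-17F, cytokines that T cells and innate lymphoid cells of the gut release. In epithelial and stromal cells the receptor acts through the adaptor Act1 to raise chemokines that attract neutrophils, antimicrobial proteins and acute-phase proteins. DSS damages the colon surface, after which leukocytes enter the wall, and crypt cells divide to rebuild the lining once it is withdrawn.

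Il17rc itself checks the genotype labels, and here it went against them for 1 array clearly and for another in part. Its brighter probe set had intensities of 13, 9, 12 and 9 in KO day 15 arrays, against 331, 44, 12 and 10 in KO day 7 arrays. The KO arrays of the other stages lay between 7 and 15, and the WT arrays between 76 and 515, with WT day 7 between 340 and 515. KO day 7 replicate 1 was therefore close to the WT day 7 range, replicate 2 lay between the genotypes, and the other 6 arrays were at the KO level. The second probe set of Il17rc lay between 6 and 9 on all arrays of both genotypes and checks nothing. The library labelled KO day 7 replicate 1 and the library labelled replicate 2 were kept under their labels, and counts are given with and without both.

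The same 2 arrays held transcripts of squamous epithelium, which lines the anus and skin and not the colon. Krt5, a keratin of basal squamous cells, had intensities of 21, 17, 17 and 18 in KO day 15 arrays, against 4230, 1006, 19 and 19 in KO day 7 arrays. Krt14, its partner, had 16, 12, 13 and 64 in KO day 15 arrays, against 4853, 1587, 17 and 16 in KO day 7 arrays. High values stood on KO day 7 replicates 1 and 2 alone. The summed intensity of the 24 squamous markers measured was 12264, 13131, 13284 and 9769 in KO day 15 arrays, against 39640, 20174, 13221 and 12744 in KO day 7 arrays. Epcam, an adhesion protein of colon epithelium, checked the tissue, with 6462, 6529, 7030 and 5268 in KO day 15 arrays, against 5864, 6629, 6893 and 6806 in KO day 7 arrays. All 8 arrays held Epcam at a like level (log2 difference -0.06 ± 0.09, adjusted p = 0.635), lowest on day 15 replicate 4. Other epithelial genes were further down on that array. Summed markers shared by crypt and surface were 50030, 52244, 52250 and 36051 in KO day 15 arrays, against 48524, 53542, 54996 and 53792 in KO day 7 arrays. On day 15 replicate 4 the goblet cell genes summed to 13106, where the other KO day 15 arrays had 32559, 36741 and 40438. Absorptive colonocyte genes summed to 16348 there, against 30857, 34281 and 33474.

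KO day 15 replicate 4 stood apart within its group, with a highest correlation of 0.968 to another day 15 array. Correlations within KO day 15 spanned 0.939 to 0.991, within KO day 7 0.967 to 0.994, and between the groups 0.897 to 0.967. Its summed neutrophil markers were 34715, where the other KO day 15 arrays had 5620, 7022 and 6419 and the KO day 7 arrays 6202, 1838, 522 and 704. The median intensity of an array was 14 to 16, and 36% of genes averaged below 16 over the 8 arrays, a level near background. Arrays have no read depth, and their number limits the precision.

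At day 15, 2120 genes were higher and 2183 lower than at day 7 in KO colon, together 25.2% of the genes tested (limma, Benjamini-Hochberg adjusted p under 0.05). Most measured members of the interferon-induced, macrophage, lymphocyte and cell division lists rose, and most of the smooth muscle and circadian clock lists fell. Counts are given below for most of the 50 lists. Each count is to be read beside all genes tested, of which 12.4% rose and 12.8% fell. The median log2 difference over all genes was -0.03. Without KO day 7 replicates 1 and 2, 1686 genes were higher and 1545 lower (18.9%), and 2983 of the calls were kept in the same direction. Where arrays were centred on their medians in place of quantile normalization, 66.3% of the calls were higher, against 49.3% here. Differences below are on the log2(intensity + 1) scale, day 15 minus day 7, with the standard error of the model.

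**Figure D1:**
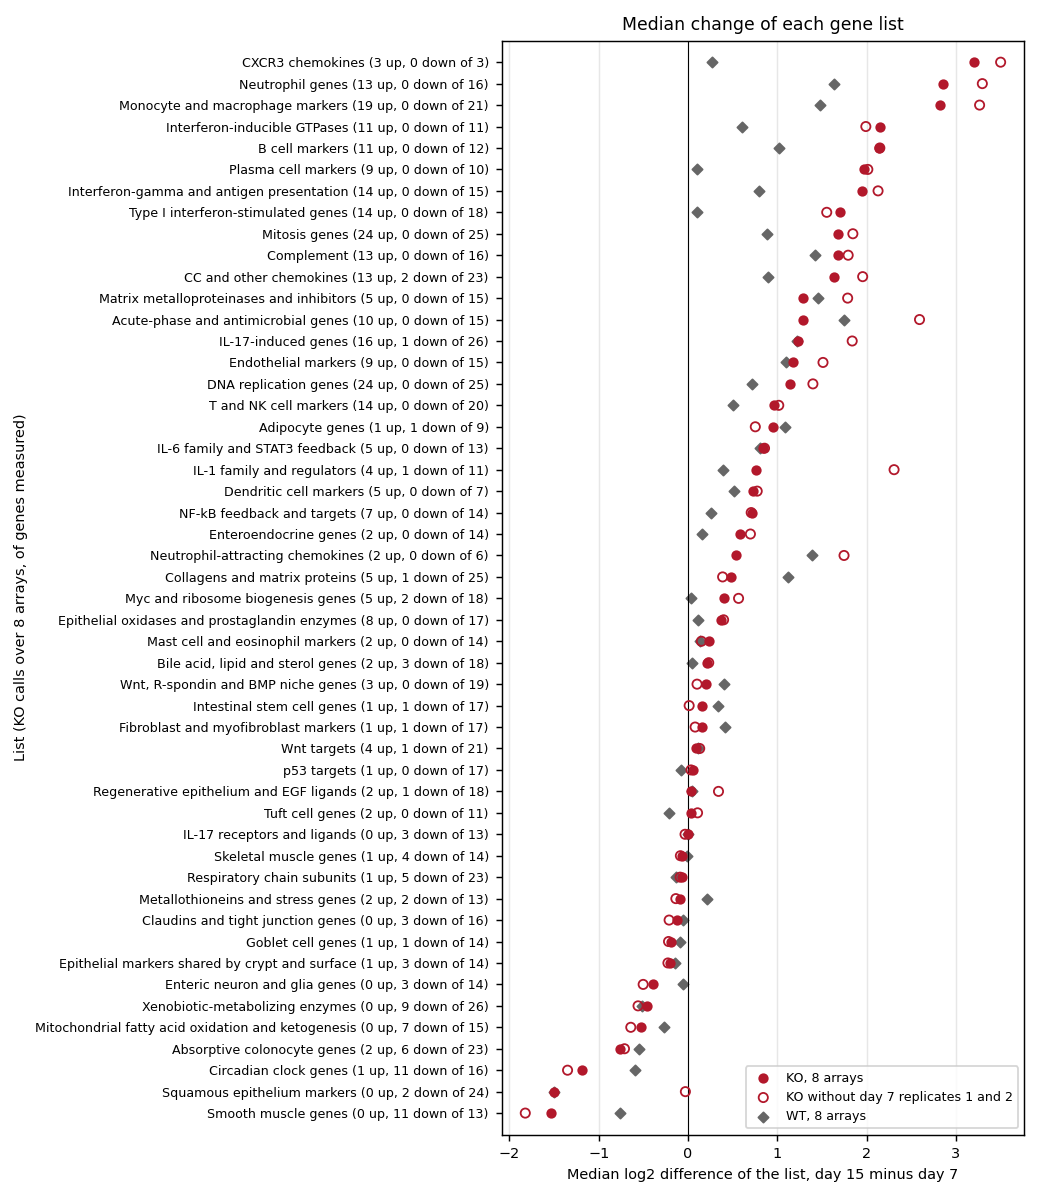
Median log2 difference, day 15 minus day 7, of each of the 50 gene lists on the horizontal axis: filled red points for KO, open points for KO without day 7 replicates 1 and 2, grey diamonds for WT. The interferon-inducible GTPases lay at 2.15 in KO and 0.61 in WT, and smooth muscle genes at -1.53 in KO and -0.76 in WT.

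Among the genes whose groups of arrays did not overlap (23.4% of all genes), the 12 with the highest rises were secreted defence proteins, cytokines of myeloid cells, B cell genes and interferon-induced enzymes. Lack of overlap was a condition for choosing these 12 and the 12 falls below, so it is no separate result for them. Saa3, an acute-phase protein, had intensities of 1034, 890, 709 and 8403 in KO day 15 arrays, against 41, 19, 13 and 12 in KO day 7 arrays. All 4 day 15 arrays lay above all 4 day 7 arrays, with replicate 4 at day 15 the highest (log2 difference 6.22 ± 0.89, adjusted p = 7.78e-06). Il1b, the inflammatory cytokine interleukin-1 beta, had 661, 900, 1054 and 4121 in KO day 15 arrays, against 128, 38, 13 and 17 in KO day 7 arrays, a difference of 5.17 ± 0.85 (adjusted p = 4.35e-05). Cxcl2, a neutrophil-attracting chemokine, had 599, 808, 530 and 4325 in KO day 15 arrays, against 142, 23, 10 and 14 in KO day 7 arrays (5.16 ± 0.91, adjusted p = 0.000105). Acod1, the enzyme with which activated macrophages make itaconate, had 410, 777, 581 and 4256 in KO day 15 arrays, against 87, 25, 15 and 14 in KO day 7 arrays (5.06 ± 0.79, adjusted p = 2.2e-05). In these 3 genes day 15 replicate 4 was again the highest array and day 7 replicate 1 the highest of its group.

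Reg3b, an antibacterial lectin of the gut epithelium, had intensities of 1097, 1091, 37 and 481 in KO day 15 arrays, against 10, 11, 6 and 7 in KO day 7 arrays (5.33 ± 0.99, adjusted p = 0.000185). Retnlb, a resistin-like protein that goblet cells secrete, had 718, 2074, 1965 and 416 in KO day 15 arrays, against 14, 35, 94 and 15 in KO day 7 arrays (5.09 ± 0.74, adjusted p = 9.97e-06). Neither had its highest value on day 15 replicate 4, and Reg3b was low on replicate 3. Trim15, a tripartite-motif protein, had 457, 283, 392 and 371 in KO day 15 arrays, against 10, 11, 15 and 10 in KO day 7 arrays. Its day 15 arrays were within a narrow range and its smallest value there was far above the day 7 values, with a difference of 4.90 ± 0.47 and the smallest adjusted p of the 12, 6.27e-08. These 12 calls held under all alternatives run.

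The 12 largest falls came from genes of varied roles. Cyp2c55, a cytochrome P450 of the colon, had intensities of 189, 102, 61 and 28 in KO day 15 arrays, against 1753, 1579, 968 and 1832 in KO day 7 arrays. Day 7 replicate 3 was the lowest of its group and still above all day 15 arrays (-4.44 ± 0.91, adjusted p = 0.000511). Mettl7b, a methyltransferase-like protein, had 30, 22, 37 and 22 in KO day 15 arrays, against 128, 192, 167 and 236 in KO day 7 arrays (-2.83 ± 0.65, adjusted p = 0.00152). Pcp4, a small regulator of calmodulin, had 124, 105, 132 and 77 in KO day 15 arrays, against 647, 1649, 2087 and 1231 in KO day 7 arrays (-3.75 ± 0.59, adjusted p = 2.68e-05). Tnnt2, cardiac troponin T, differed by -3.12 ± 0.45, Tppp, which bundles microtubules, by -2.98 ± 0.44, and Optc, a matrix proteoglycan, by -2.90 ± 0.41 (adjusted p = 9.12e-06, 1.34e-05 and 6.87e-06). For these last 4 genes KO day 7 replicate 1 was the lowest array of its group, and the differences were larger without replicates 1 and 2, at -4.06, -3.55, -3.35 and -3.33. The day 7 arrays of Krt10, a keratin of skin, were 4679, 1353, 82 and 82, and its difference of -3.01 ± 1.14 was -0.57 without replicates 1 and 2 (adjusted p = 0.801). Calls were also lost without them for Cyp2f2, a cytochrome P450 (-3.26, then -2.20 with adjusted p = 0.0773), Sycn, syncollin (-3.09, then -3.17, 0.0724) and Mal, an apical membrane proteolipid (-2.98, then -2.79, 0.0546).

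**Figure D2:**
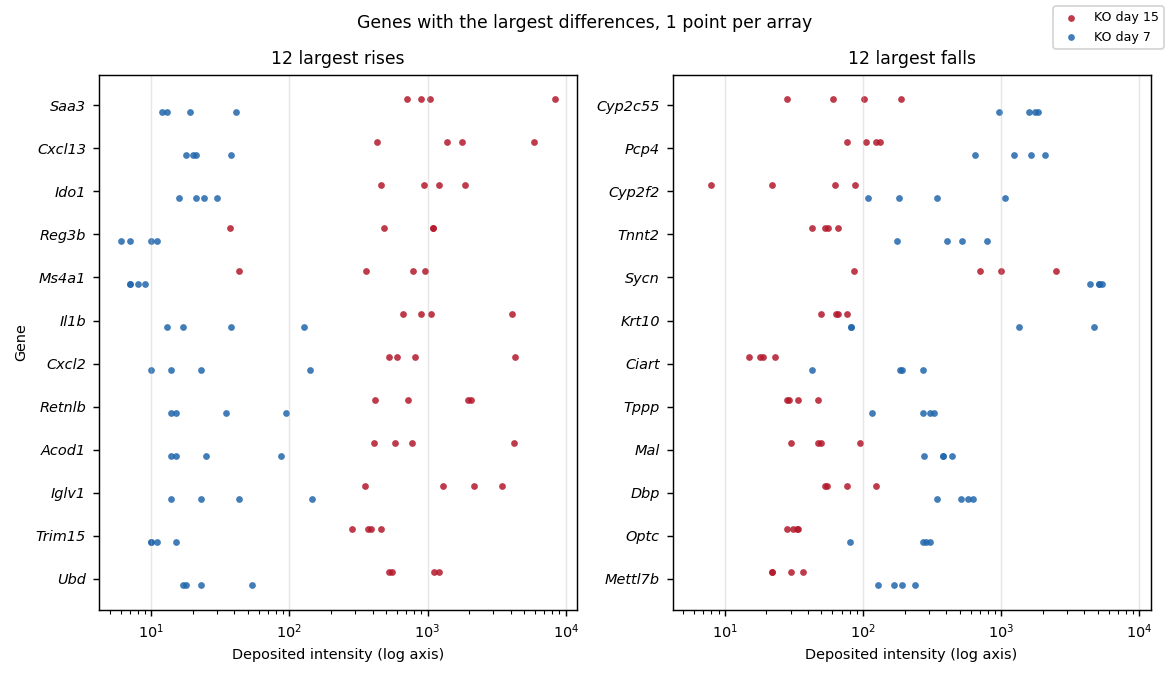
Intensity on each of the 8 KO arrays (horizontal log axis) of the 12 genes with the highest rises and the 12 with the largest falls. In the row of each gene, KO day 15 (red) is drawn above KO day 7 (blue). The genes were chosen among those without overlap, so in every one the day 15 points lie on one side of the day 7 points. The day 7 spread is widest for Krt10, at 82 to 4679.

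Interferon-induced genes rose as a block. Of the interferon-inducible GTPases, which attack the membranes around intracellular microbes, 11 of 11 measured rose, where 12.4% of all genes rose, with a median of 2.15. Ifi47 had intensities of 1530, 1866, 1335 and 1208 in KO day 15 arrays, against 106, 79, 62 and 34 in KO day 7 arrays (4.37 ± 0.50, adjusted p = 6.46e-07). Tgtp1 had 1208, 1346, 773 and 811 in KO day 15 arrays, against 63, 45, 70 and 16 in KO day 7 arrays (4.43 ± 0.67, adjusted p = 1.51e-05). Irgm1, which guards the cell's own membranes against the other members, had 659, 661, 581 and 356 in KO day 15 arrays, against 102, 130, 116 and 100 in KO day 7 arrays (2.17 ± 0.36, adjusted p = 4.61e-05). In all 11 members the 4 day 15 arrays lay above the 4 day 7 arrays, which held for 11.5% of all genes in that direction. Gbp8 differed by 2.15 ± 0.30 with the pseudocount of 1 and by 1.33 with a pseudocount of 16. Members of this family are near-identical in sequence, and a probe set can bind more than 1 of them.

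The list of interferon-gamma responses and antigen presentation had 14 of 15 members higher and none lower, with a median of 1.94. Ido1, which breaks down tryptophan, had intensities of 1881, 938, 1203 and 460 in KO day 15 arrays, against 21, 24, 30 and 16 in KO day 7 arrays (5.37 ± 0.78, adjusted p = 9.93e-06). Ubd, the ubiquitin-like protein FAT10, had 1113, 1211, 555 and 527 in KO day 15 arrays, against 18, 23, 54 and 17 in KO day 7 arrays (4.88 ± 0.62, adjusted p = 1.72e-06). Cd74, the invariant chain of MHC class II, had 1086, 1005, 699 and 719 in KO day 15 arrays, against 123, 167, 178 and 46 in KO day 7 arrays (2.79 ± 0.47, adjusted p = 5.8e-05). These genes were lower on day 15 replicate 4 than on the first replicate, unlike the myeloid cytokines above, and their groups did not overlap. Nlrc5, the transactivator of MHC class I genes, differed by 2.87 ± 0.48 (adjusted p = 6.31e-05). Ifng, which encodes interferon gamma itself and was named after its values were seen, was near background, with 12, 12, 11 and 10 in KO day 15 arrays, against 9, 11, 9 and 9 in KO day 7 arrays (adjusted p = 0.0794).

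Among genes induced by type I interferon, 14 of 18 rose and none fell, with a median of 1.70. Ifit2, which blocks translation of foreign RNA, had intensities of 957, 627, 437 and 919 in KO day 15 arrays, against 42, 48, 47 and 46 in KO day 7 arrays (3.78 ± 0.58, adjusted p = 1.76e-05). Usp18, a protease that removes ISG15, had 147, 133, 67 and 122 in KO day 15 arrays, against 15, 10, 16 and 11 in KO day 7 arrays (2.96 ± 0.49, adjusted p = 5.55e-05). The day 7 arrays were uniformly low in both genes and overlapped with no day 15 array. Cmpk2, a mitochondrial nucleotide kinase, differed by 2.16 ± 0.39, and Oas3, an RNA sensor, by 1.52 ± 0.20 or, with a pseudocount of 16, 0.94. Without KO day 7 replicates 1 and 2, 9 of the 18 passed the test, and 9 of the 11 GTPases and 12 of the 15 interferon-gamma genes, where 9.86% of all genes did. All 3 CXCR3 chemokines, which draw activated T cells, rose. Cxcl9 had 315, 237, 220 and 229 in KO day 15 arrays, against 12, 12, 11 and 16 in KO day 7 arrays (4.16 ± 0.88, adjusted p = 0.000723), Cxcl10 differed by 3.20 ± 0.72 and Cxcl11 by 0.75 ± 0.16, with Cxcl11 close to background and at 0.32 with the larger pseudocount.

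Since these genes moved together, their promoters were read for the interferon-stimulated response element, GAAA repeated after a gap of 2 bases on either strand, which STAT and IRF factors bind. RefSeq promoters of GRCm38.p6, from 250 bases before to 50 after the gene start, were matched for 8 of the 11 GTPases, 12 of the 18 type I genes and 10 of the 15 interferon-gamma genes. A gene was counted if any of its promoters held a match. The element stood in 7 GTPase genes (87.5%), in 6 type I genes (50.0%) and in 0 of 10 interferon-gamma genes. Of all 27025 genes with a promoter, 3.99% had it. Stretches around it are shown for the GTPases with the smallest p that had one and for further members that show both its orientations. Capitals mark only the match nearest upstream of the gene start in each stretch. The stretches lie at chr11:48992279-48992358, minus strand (Tgtp1), chr11:48871421-48871479, minus strand (Irgm1), chr11:58214878-58214957, plus strand (Irgm2), chr3:142530248-142530327, plus strand (Gbp7), chr5:120777690-120777769, minus strand (Oas3) and chr19:34583372-34583451, plus strand (Ifit3).
Tgtp1: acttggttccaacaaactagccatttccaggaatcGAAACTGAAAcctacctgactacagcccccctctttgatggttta
Irgm1: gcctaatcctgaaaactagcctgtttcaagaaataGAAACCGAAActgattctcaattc
Irgm2: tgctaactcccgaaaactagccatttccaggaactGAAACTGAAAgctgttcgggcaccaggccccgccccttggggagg
Gbp7: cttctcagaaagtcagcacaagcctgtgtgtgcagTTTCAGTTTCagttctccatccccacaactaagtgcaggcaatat
Oas3: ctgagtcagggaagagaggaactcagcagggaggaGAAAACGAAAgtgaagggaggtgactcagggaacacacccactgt
Ifit3: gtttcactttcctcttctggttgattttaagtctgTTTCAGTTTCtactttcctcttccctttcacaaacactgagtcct
The marked match lay 67 bases upstream of the gene start in Tgtp1, 14 in Irgm1, 54 in Irgm2, 43 in Gbp7, 65 in Oas3 and 112 in Ifit3. In Gbp7 and Ifit3 the marked match reads on the opposite strand. The stretches of Irgm1 and Ifit3 hold a further match, in Irgm1 overlapping the capitals and in Ifit3 in lower case. A match describes the letters of the window and is not a measured binding site.

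Macrophage and monocyte markers rose in 19 of 21 cases with none lower, and their median was 2.83. Lyz2, the lysozyme of myeloid cells, had intensities of 3565, 1755, 2245 and 3198 in KO day 15 arrays, against 421, 347, 367 and 275 in KO day 7 arrays (2.83 ± 0.29, adjusted p = 1.03e-07). C1qb, a chain of the complement starter C1q that tissue macrophages make, had 702, 350, 542 and 1110 in KO day 15 arrays, against 75, 34, 32 and 20 in KO day 7 arrays (3.99 ± 0.53, adjusted p = 3.03e-06). The groups did not overlap in either gene, and day 15 replicate 2 was the lowest of its group in both. Fcgr4, an antibody receptor, differed by 3.80 ± 0.48 and Ms4a7, a macrophage membrane protein, by 4.37 ± 0.57. Without day 15 replicate 4, 17 of the 21 passed, with a median of 2.39. Of the complement genes, 13 of 16 rose and none fell, among them C1qa (3.41), C1qc (3.12) and properdin, Cfp (3.12). In whole tissue, fewer cells of a type and less RNA per cell cannot be told apart.

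Of 16 neutrophil genes, 13 rose and none fell, with a median of 2.86. Clec4e, a receptor for mycobacterial lipid and dead cells, had intensities of 115, 156, 129 and 1574 in KO day 15 arrays, against 11, 11, 8 and 6 in KO day 7 arrays (4.59 ± 0.69, adjusted p = 1.52e-05). Ccr1, a chemokine receptor, differed by 3.06 ± 0.56 and Clec4d, the partner of Clec4e, by 3.33 ± 0.69. Much of this count rested on 1 array, since 5 of 16 passed without day 15 replicate 4, with a median of 1.64, and 7 and 8 passed without day 7 replicates 3 and 4. The calprotectin genes, named after their values were seen, spanned the groups. S100a8 had 1158, 1356, 1043 and 6239 in KO day 15 arrays, against 1980, 421, 8 and 7 in KO day 7 arrays (4.29 ± 1.32, adjusted p = 0.0162). S100a9 had 1909, 3114, 2419 and 10686 in KO day 15 arrays, against 3279, 806, 20 and 24 in KO day 7 arrays (4.17 ± 1.26, adjusted p = 0.0142). The groups overlapped in both genes, with day 7 replicate 1 within the day 15 range and replicate 2 below it. These are the arrays with squamous keratins, and day 7 replicates 3 and 4 were near background. Without those arrays S100a8 differed by 7.68 and S100a9 by 7.26 (adjusted p = 8.73e-05 and 0.000131). The part of the squamous tissue in these values was not tested.

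Genes that IL-17 is known to induce were measured on day 15 arrays that all had Il17rc at the KO level. In that list 16 of 26 rose and 1 fell, with a median of 1.23, and 10 of 26 rose without day 15 replicate 4 or without day 7 replicate 4. Besides Saa3 and Cxcl2, they included the collagenase Mmp13, with 207, 81, 74 and 800 in KO day 15 arrays, against 10, 12, 8 and 7 in KO day 7 arrays (4.11 ± 0.72, adjusted p = 0.000102). Ccl7, a monocyte chemokine, had 104, 247, 61 and 143 in KO day 15 arrays, against 14, 15, 14 and 15 in KO day 7 arrays (2.92 ± 0.42, adjusted p = 9.02e-06). The groups did not overlap in either. Lcn2, an iron-sequestering protein named after its values were seen, had 171, 233, 88 and 4639 in KO day 15 arrays, against 3091, 654, 11 and 15 in KO day 7 arrays. Its groups overlapped widely, with high values on day 15 replicate 4 and day 7 replicates 1 and 2, and its difference was 1.29 ± 1.36 (adjusted p = 0.53). Without the 2 day 7 arrays the difference of Lcn2 was 4.65 (adjusted p = 0.0134). Acute-phase and antimicrobial genes rose in 10 of 15 cases, with Lrg1, a liver and neutrophil glycoprotein, at 296, 322, 237 and 1051 in KO day 15 arrays, against 61, 23, 22 and 15 in KO day 7 arrays (3.80 ± 0.51, adjusted p = 3.67e-06).

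Of the IL-17 ligands, receptors and adaptor themselves, none of 13 measured rose and 3 fell, a share above the 12.8% of all genes that fell, and 1 fell without day 7 replicate 2. Il17re, which encodes a receptor subunit for IL-17C, had intensities of 86, 73, 67 and 48 in KO day 15 arrays, against 221, 140, 121 and 130 in KO day 7 arrays (-1.35 ± 0.23, adjusted p = 6.59e-05). All day 15 arrays were below all day 7 arrays, and without day 7 replicates 1 and 2 the difference was -1.09 (adjusted p = 0.00449). The difference of Il17rc, -1.76 ± 0.57 (adjusted p = 0.0221), was -0.04 without these 2 arrays (adjusted p = 0.953). Il17d was near background and differed by -0.55 ± 0.19 (adjusted p = 0.0363), or -0.31 with a pseudocount of 16. Its call was lost without day 15 replicate 1 or 3, without day 7 replicate 2 or 3, with median centring and without further normalization. Il17a, the T cell ligand, had 11, 12, 14 and 20 in KO day 15 arrays, against 10, 10, 9 and 12 in KO day 7 arrays, and did not pass the test (0.38 ± 0.15, adjusted p = 0.0635). Il17ra, the shared subunit, had 135, 78, 106 and 363 in KO day 15 arrays, against 71, 91, 93 and 92 in KO day 7 arrays, with groups that overlapped, the highest value on day 15 replicate 4 and an adjusted p of 0.11. Traf3ip2, which encodes Act1, differed by -0.29 ± 0.12 and Il22ra2, a decoy receptor of interleukin 22, by 0.77 ± 0.41, neither past the threshold. The adjusted p of Il17rb, Il17rd, Il25, Il23a, Il12b and Il12rb1 lay between 0.215 and 0.993, with differences of -0.13, -0.25, 0.13, 0.01, 0.17 and -0.00.

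Cytokine signalling genes outside the IL-17 list rose in part. Of 23 CC and other chemokines 13 rose and 2 fell, where 12.4% of all genes rose and 12.8% fell. In this list 1 fell without day 15 replicate 1 or 4 or any single day 7 array. Cxcl13, which organises B cell follicles, had intensities of 1790, 431, 1391 and 5893 in KO day 15 arrays, against 21, 20, 18 and 38 in KO day 7 arrays (5.97 ± 0.91, adjusted p = 1.76e-05). Ccl5, a T cell chemokine, differed by 3.51 ± 0.54 and Cxcl16, a membrane-bound chemokine, by 1.92 ± 0.24. Il18bp, a decoy for interleukin 18, had 186, 134, 140 and 109 in KO day 15 arrays, against 15, 15, 29 and 12 in KO day 7 arrays (2.91 ± 0.37, adjusted p = 1.72e-06). Socs3, the feedback inhibitor of STAT3, had 190, 133, 175 and 852 in KO day 15 arrays, against 59, 14, 16 and 14 in KO day 7 arrays (3.45 ± 0.49, adjusted p = 7.78e-06). In Cxcl13, Il18bp and Socs3 the groups did not overlap, and day 15 replicate 4 was the highest array for Cxcl13 and Socs3 but the lowest of its group for Il18bp. Of 14 NF-kB feedback genes and targets 7 rose with a median of 0.72, and without day 15 replicate 4 there were 4 with a median of 0.43. Among the 7 were Nfkbie (2.10), an inhibitor of NF-kB, and Icam1 (2.09), a leukocyte adhesion molecule. Tnf differed by 1.50 ± 0.32, and its arrays were 14, 15, 18 and 104 in KO day 15 arrays, against 8, 8, 7 and 9 in KO day 7 arrays. The 3 lower day 15 arrays of Tnf were near background, and the difference was 0.83 with a pseudocount of 16. Of 6 neutrophil-attracting chemokines and growth factors, Cxcl2 and Cxcl1 rose, Cxcl1 by 2.70 ± 0.83 (adjusted p = 0.0156) and no longer past the threshold without day 15 replicate 4.

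Lymphocyte genes rose as well. Of 12 B cell markers 11 rose and none fell, where 12.4% of all genes rose, with a median of 2.14. Ms4a1, which encodes CD20, had intensities of 790, 43, 356 and 954 in KO day 15 arrays, against 8, 7, 7 and 9 in KO day 7 arrays (5.21 ± 0.97, adjusted p = 0.000196). Cd79b, a chain of the B cell receptor, had 506, 63, 206 and 523 in KO day 15 arrays, against 16, 15, 14 and 17 in KO day 7 arrays (3.86 ± 0.63, adjusted p = 3.99e-05). Day 15 replicate 2 was the lowest of its group in both, far below the other 3, and still above all day 7 arrays. Bank1, a B cell scaffold protein, differed by 3.89 ± 0.69 and Cd22, an inhibitory B cell receptor, by 3.04 ± 0.49. The summed intensity of the B cell list was 2581, 297, 1164 and 2944 in KO day 15 arrays, against 148, 152, 139 and 155 in KO day 7 arrays.

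Of 10 plasma cell genes 9 rose, where 12.4% of all genes rose, with a median of 1.97. Jchain, which joins IgA units into dimers, had intensities of 6008, 4959, 1797 and 3634 in KO day 15 arrays, against 1271, 435, 288 and 94 in KO day 7 arrays (3.36 ± 0.57, adjusted p = 7.35e-05). Iglv1, an antibody light chain variable gene, had 3445, 2167, 350 and 1288 in KO day 15 arrays, against 146, 43, 23 and 14 in KO day 7 arrays (5.05 ± 0.97, adjusted p = 0.000261). Pou2af1, a B cell coactivator, had 420, 77, 121 and 512 in KO day 15 arrays, against 9, 13, 10 and 13 in KO day 7 arrays (4.12 ± 0.57, adjusted p = 5.45e-06). Day 7 replicate 1 was the highest of its group for Jchain and Iglv1, and the groups did not overlap. Of 20 T and NK cell markers 14 rose, with a median of 0.97. Gzma, a granzyme of cytotoxic cells, had 74, 84, 34 and 54 in KO day 15 arrays, against 9, 9, 7 and 8 in KO day 7 arrays (2.54 ± 0.31, adjusted p = 1.45e-06). Gzmb differed by 2.29 ± 0.33, and the T cell receptor component Cd3d by 2.70 ± 0.41. For Cd3d and Gzma the differences were 1.74 and 1.51 with a pseudocount of 16, and the day 7 arrays were near background. Of 7 dendritic cell markers 5 rose, with H2-Oa, a regulator of class II loading, at 2.60 ± 0.52. Of 14 mast cell and eosinophil genes 2 rose, a share near the 12.4% of all genes, and 8 of the 14 averaged below 16 over the 8 arrays. The 2 were the mucosal protease Mcpt2 (2.57) and the histamine-forming Hdc (2.49), which did not pass without day 15 replicate 4.

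**Figure D3:**
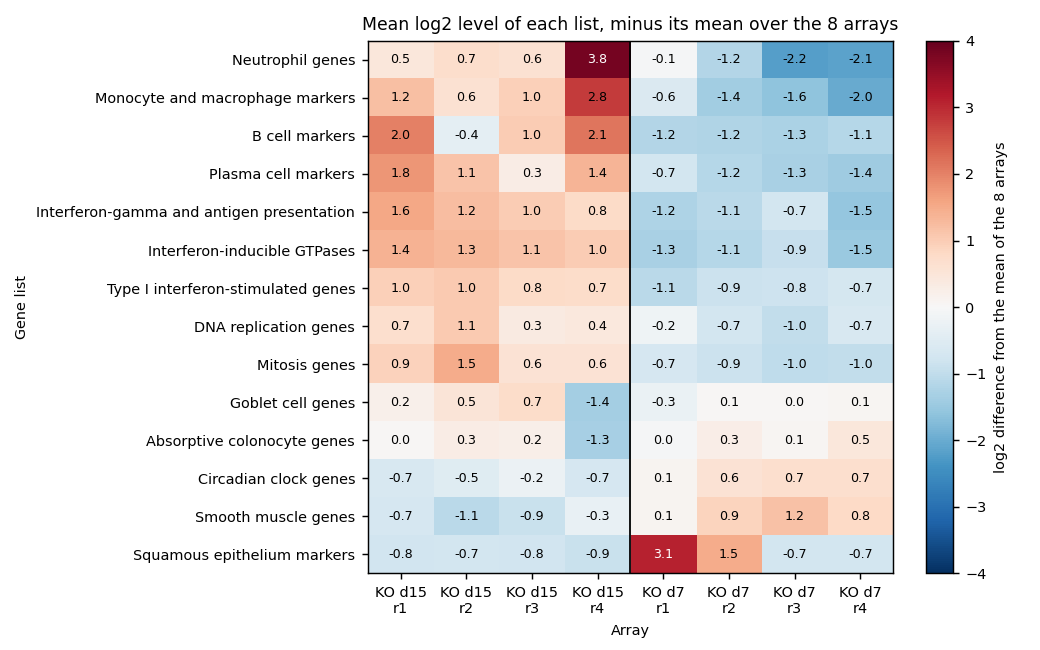
Mean log2 level of 14 gene lists (down) on each of the 8 KO arrays (across, day 15 left of day 7), shown by colour as the difference from the mean of the 8 arrays. Day 15 replicate 4 is highest for the neutrophil genes, and day 7 replicates 1 and 2 are highest for the squamous markers.

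Mitosis genes were higher on all day 15 arrays than on any day 7 array. Of 25 mitosis genes 24 rose and none fell, where 12.4% of all genes rose, with a median of 1.68. In all 25 the groups did not overlap, which held for 11.5% of all genes in that direction. Aurkb, a kinase of chromosome segregation, had intensities of 103, 136, 62 and 80 in KO day 15 arrays, against 16, 11, 10 and 12 in KO day 7 arrays (2.69 ± 0.30, adjusted p = 4.96e-07). Top2a, the topoisomerase that untangles chromosomes, had 653, 789, 397 and 407 in KO day 15 arrays, against 146, 91, 86 and 98 in KO day 7 arrays (2.26 ± 0.29, adjusted p = 1.72e-06). Replicates 1 and 2 at day 15 were the highest arrays in both genes, and no day 7 array reached the day 15 range. Kif20a, a motor of cytokinesis, differed by 2.05 ± 0.26 and Bub1, a checkpoint kinase, by 2.65 ± 0.35. The count was 24 of 25 without KO day 7 replicates 1 and 2 also. Of 25 DNA replication genes 24 rose, with a median of 1.14. Fen1, which trims Okazaki fragments, had 157, 173, 101 and 144 in KO day 15 arrays, against 41, 27, 18 and 18 in KO day 7 arrays (2.36 ± 0.24, adjusted p = 1.03e-07). Pcna, the sliding clamp, had 2507, 2961, 2218 and 2471 in KO day 15 arrays, against 1495, 1075, 866 and 1012 in KO day 7 arrays (1.13 ± 0.15, adjusted p = 2.13e-06). The groups did not overlap in either gene. Rrm2, a subunit of ribonucleotide reductase, differed by 2.07 ± 0.26 and Mcm6, of the replicative helicase, by 1.58 ± 0.21.

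The promoters of these genes were read for motifs bound by cell cycle factors, since the members moved together. The CHR, TTTGAA on either strand, is bound by the MuvB complexes of mitotic genes. Counted by gene as above, it stood in 15 of 20 mitosis genes with a promoter (75.0%), in 3 of 21 replication genes (14.3%) and in 20.2% of all genes. The E2F letters searched were TTTCCCGC, TTTGGCGC and TTTCGCGC on either strand. They stood in 9 of 21 replication genes (42.9%), in 1 of 20 mitosis genes (5.0%) and in 2.12% of all genes with a promoter. The windows are RefSeq promoters of GRCm38.p6 as above, and in 0 promoters of the 2 lists did a CHR and an E2F match share a base. Cdk1, the mitotic kinase, Top2a and Cdc20, an activator of the anaphase-promoting complex, are shown for the CHR, and Mcm5, Mcm6 and Mcm7 of the helicase for E2F, with the motif in capitals. They lie at chr10:69352913-69352962, minus strand (Cdk1), chr11:99024190-99024247, minus strand (Top2a), chr4:118437344-118437396, minus strand (Cdc20), chr8:75109325-75109402, plus strand (Mcm5), chr1:128359710-128359787, minus strand (Mcm6) and chr5:138172006-138172083, minus strand (Mcm7).
Cdk1: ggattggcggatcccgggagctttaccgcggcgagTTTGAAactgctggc
Top2a: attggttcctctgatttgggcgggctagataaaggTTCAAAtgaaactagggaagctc
Cdc20: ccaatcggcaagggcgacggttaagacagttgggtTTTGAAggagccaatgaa
Mcm5: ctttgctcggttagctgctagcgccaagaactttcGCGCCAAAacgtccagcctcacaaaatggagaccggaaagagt
Mcm6: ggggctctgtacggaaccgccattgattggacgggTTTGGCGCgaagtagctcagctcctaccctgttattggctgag
Mcm7: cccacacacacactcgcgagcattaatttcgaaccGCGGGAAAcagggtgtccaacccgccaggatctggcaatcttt
Of the 3 CHR matches, the one in Top2a reads on the opposite strand, and 9, 17 and 12 bases lay between the match and the gene start in Cdk1, Top2a and Cdc20. The marked E2F matches, those nearest the start, lay 141, 39 and 157 bases upstream of it in Mcm5, Mcm6 and Mcm7. In Mcm5 a further match, TTTCGCGC, overlaps the marked one and begins in lower case. No binding was measured at any of them.

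Genes of growth, stem cells and repair changed in few cases. Of 18 Myc and ribosome biogenesis genes 5 rose and 2 fell, where 12.4% of all genes rose and 12.8% fell, and single arrays moved these counts, with 10 higher and 0 lower without day 7 replicate 1 and 0 higher and 2 lower without day 7 replicate 3. Srm, spermidine synthase, differed by 0.82 ± 0.24, and its call was lost without day 7 replicate 3. Myc differed by -0.81 ± 0.26. Of 17 stem cell genes, Ascl2, a stem cell transcription factor, rose (1.44 ± 0.43, adjusted p = 0.0125) and Sox9, a crypt base factor, fell (-1.26 ± 0.37, adjusted p = 0.0109). Ascl2 did not pass without KO day 7 replicates 1 and 2 (adjusted p = 0.0572) or without day 15 replicate 2. Sox9 and Myc did not pass without KO day 15 replicate 4, and Myc did not without day 7 replicate 1. Of 21 Wnt targets 4 rose and 1 fell, where 12.4% of all genes rose and 12.8% fell, and 2 rose and none fell without day 15 replicate 4, while 2 rose and 1 fell without day 7 replicate 4. One of the 4 was the matrix protease Mmp7, with 78, 54, 89 and 24 in KO day 15 arrays, against 13, 9, 7 and 9 in KO day 7 arrays (2.31 ± 0.45, adjusted p = 0.000301, or 1.42 with a pseudocount of 16). Of 19 niche signals 3 rose, near the 12.4% of all genes, and 1 without day 15 replicate 4. Among the 3 was Bmp5, a ligand of the BMP pathway, with 162, 96, 148 and 330 in KO day 15 arrays, against 22, 28, 44 and 23 in KO day 7 arrays (2.42 ± 0.46, adjusted p = 0.000248). Of 18 regenerative genes 2 rose and 1 fell, where 12.4% of all genes rose and 12.8% fell. Btc, an EGF receptor ligand, fell (-1.29 ± 0.31). Plaur, the urokinase receptor, rose (2.08 ± 0.50, with 516 on day 15 replicate 4 and 60 to 79 on the other 3). Clu rose also (1.81, adjusted p = 0.0192), and its call was lost without day 15 replicate 1 or 4 or day 7 replicate 3. Of 17 p53 targets 1 rose, the death receptor Fas (1.42 ± 0.30).

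Counts of matrix and vessel genes depended on day 15 replicate 4. Of 15 matrix metalloproteinases and inhibitors 5 rose, and 2 without that array, but 10 without day 15 replicate 2 and 8 without replicate 3. Timp1, a protease inhibitor, had intensities of 178, 71, 83 and 1023 in KO day 15 arrays, against 89, 25, 21 and 15 in KO day 7 arrays (2.53 ± 0.69, adjusted p = 0.00694), and its call was lost without replicate 4. Of 25 collagens and matrix proteins 5 rose and 1 fell, and 1 rose and 1 fell without replicate 4, while 8 rose without day 15 replicate 2 and 2 without day 7 replicate 2. Without day 15 replicate 1 or without day 7 replicate 4, 3 rose. Thbs2, thrombospondin 2, was the one that fell, with 46, 20, 35 and 72 in KO day 15 arrays, against 47, 160, 240 and 152 in KO day 7 arrays (-1.90 ± 0.47, adjusted p = 0.00329), and day 7 replicate 1 overlapped the day 15 arrays. Of 15 endothelial genes 9 rose, and 2 without replicate 4. Icam2 had 68, 24, 34 and 92 in KO day 15 arrays, against 15, 13, 10 and 13 in KO day 7 arrays (1.75 ± 0.37, adjusted p = 0.000705, or 1.10 with a pseudocount of 16) and Madcam1, the gut homing receptor's ligand, differed by 2.05 ± 0.48. Of 17 fibroblast markers, Pdgfrb rose (adjusted p = 0.0399) and Fap fell (-0.73 ± 0.21), which is below the shares of all genes. The call of Pdgfrb was lost without day 15 replicate 1 or 4 or day 7 replicate 2, 3 or 4, and that of Fap without day 15 replicate 1 or day 7 replicate 3, with median centring and without further normalization.

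Epithelial genes changed in part, and the counts and their balance depended on day 15 replicate 4. Of 23 absorptive colonocyte genes 6 fell and 2 rose, with a median of -0.77, and without that array 4 fell and 3 rose, with a median of -0.36. Without day 7 replicate 3, 6 fell and 1 rose. Slc20a1, a phosphate carrier, had intensities of 709, 666, 776 and 524 in KO day 15 arrays, against 1116, 1863, 1492 and 2622 in KO day 7 arrays (-1.43 ± 0.31, adjusted p = 0.001). Scnn1a, a subunit of the epithelial sodium channel, had 19, 22, 25 and 14 in KO day 15 arrays, against 30, 37, 35 and 42 in KO day 7 arrays (-0.96 ± 0.21, adjusted p = 0.00103, or -0.62 with a pseudocount of 16). The groups did not overlap in either gene. Car2, a carbonic anhydrase, differed by -0.97 ± 0.25, and by -0.61 without day 15 replicate 4. Its call was lost when that array and day 7 replicates 1 and 2 were left out together, and when only the 2 KO groups were fitted. Of 14 goblet cell genes Retnlb rose and Fcgbp, a mucus protein, fell (-1.73 ± 0.47, lost without replicate 4), below the shares of all genes. The goblet list median of -0.20 turned to 0.22 without day 15 replicate 4, with 2 higher and 0 lower, and 4 fell without day 15 replicate 3. Krt18, a keratin of simple epithelium, fell by a small amount, with 2658, 2980, 2872 and 2253 in KO day 15 arrays, against 3904, 4201, 4570 and 4366 in KO day 7 arrays (-0.71 ± 0.14, adjusted p = 0.000393). Of 14 shared epithelial markers 3 fell and 1 rose, where 12.8% of all genes fell and 12.4% rose. In this list 1 fell and 1 rose without day 15 replicate 4, and 6 fell and 0 rose without replicate 3. The 1 that rose did not pass without day 15 replicate 1 or 2 or day 7 replicate 1 or 4 either, and 2 fell without day 15 replicate 1 or day 7 replicate 4. Of 16 tight junction genes 3 fell, F11r (-0.58), Ocln (-0.87) and Cldn3 (-0.67), and none of these calls held without day 15 replicate 4, where 1 gene of the list rose. The fallen numbered 5 without day 15 replicate 2 and 6 without replicate 3. Cldn3 also lost its call without day 15 replicate 1 or day 7 replicate 2, 3 or 4.

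Smooth muscle genes fell in 11 of 13 cases, where 12.8% of all genes fell, with a median of -1.53. Des, the muscle intermediate filament desmin, had intensities of 686, 424, 540 and 952 in KO day 15 arrays, against 2120, 3061, 3658 and 2978 in KO day 7 arrays (-2.29 ± 0.53, adjusted p = 0.00172). Pln, a regulator of the calcium pump, had 28, 23, 34 and 29 in KO day 15 arrays, against 52, 111, 192 and 85 in KO day 7 arrays (-1.98 ± 0.36, adjusted p = 0.000131). Synm, an intermediate filament protein, had 631, 521, 524 and 843 in KO day 15 arrays, against 1380, 2815, 3639 and 2939 in KO day 7 arrays (-2.12 ± 0.47, adjusted p = 0.00113). The day 7 arrays lay above the day 15 arrays in all of them, and day 7 replicate 1 was the lowest of its group. The summed level of the list was 19213, 13858, 14882 and 23937 in KO day 15 arrays, against 26763, 44749, 51431 and 44204 in KO day 7 arrays. Without day 7 replicates 1 and 2, 11 of 13 fell as well, where 9.04% of all genes did, with a median of -1.82. Day 15 arrays were thus lower in muscle and higher in leukocyte markers than day 7 arrays, and the part of tissue makeup in either result was not tested. Of 14 skeletal muscle genes 4 fell, with Ckm, muscle creatine kinase, at 30, 23, 20 and 24 in KO day 15 arrays, against 53, 189, 264 and 150 in KO day 7 arrays (-2.69 ± 0.39, adjusted p = 1.04e-05). Of 14 enteric neuron genes 3 fell, Nos1 (-0.81), Gfra1 (-0.61) and Syt1 (-0.92), none of them called when arrays were centred on their medians. The share was above the 12.8% of all genes that fell, but 0 fell without day 15 replicate 1 or 2 or without day 7 replicate 3 or 4, and 1 without day 7 replicate 2.

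Clock genes fell on the day 15 arrays. Of 16 measured, 11 fell and 1 rose, with a median of -1.19, and 10 fell and 1 rose without day 7 replicates 1 and 2. Dbp, a clock output factor, had intensities of 55, 77, 124 and 53 in KO day 15 arrays, against 343, 509, 573 and 628 in KO day 7 arrays (-2.97 ± 0.39, adjusted p = 2.57e-06). Per3, a period protein, had 30, 35, 62 and 14 in KO day 15 arrays, against 117, 227, 233 and 238 in KO day 7 arrays (-2.77 ± 0.36, adjusted p = 2.13e-06). Ciart, a repressor of the clock, had 19, 18, 23 and 15 in KO day 15 arrays, against 43, 184, 272 and 190 in KO day 7 arrays (-3.00 ± 0.43, adjusted p = 7.78e-06). The groups did not overlap, and day 7 replicate 1 was the lowest of its group in all of them. Tef, a relative of Dbp, differed by -1.94 ± 0.27. The 1 that rose was Arntl, which encodes BMAL1, a driver of the Per genes, with 92, 83, 67 and 73 in KO day 15 arrays, against 27, 22, 17 and 29 in KO day 7 arrays (1.53 ± 0.27, adjusted p = 0.000121), named after its values were seen. The hour of sampling is not in the labels, and its part in these values cannot be told apart from the stage.

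Metabolic genes fell in part. Of 26 xenobiotic-metabolizing enzymes 9 fell and none rose, with a median of -0.46, where 12.8% of all genes fell. With day 15 replicate 4 left out, 7 fell and 1 rose, and the median was -0.12. Sult1c2, a sulfotransferase, had intensities of 80, 163, 156 and 24 in KO day 15 arrays, against 352, 386, 434 and 340 in KO day 7 arrays (-2.33 ± 0.48, adjusted p = 0.0006). Fmo5, a flavin monooxygenase, had 39, 60, 51 and 32 in KO day 15 arrays, against 77, 108, 101 and 107 in KO day 7 arrays (-1.37 ± 0.28, adjusted p = 0.000596). The groups did not overlap. Gsta4, a glutathione transferase, differed by -2.01 ± 0.51 and by -1.28 without day 7 replicates 1 and 2 (adjusted p = 0.13). Of 15 genes of mitochondrial fatty acid oxidation and ketogenesis 7 fell and none rose, among them Acadm, medium-chain acyl-CoA dehydrogenase, with 1029, 1163, 1304 and 657 in KO day 15 arrays, against 1338, 1666, 1653 and 1792 in KO day 7 arrays (-0.76 ± 0.16, adjusted p = 0.000798). Of 23 respiratory chain subunits 5 fell and 1 rose, the 1 being cytochrome c, Cycs (0.78 ± 0.13). Without day 15 replicate 4, 1 fell and 2 rose, with a median of 0.02 in place of -0.07. Without day 15 replicate 1 or day 7 replicate 4, 2 fell, and without day 7 replicate 2 or 3, 3 fell. Of 17 oxidase and prostaglandin genes 8 rose and none fell, with Ptgs2, cyclooxygenase 2, at 119, 157, 217 and 1037 in KO day 15 arrays, against 27, 20, 26 and 20 in KO day 7 arrays (3.31 ± 0.69, adjusted p = 0.000647) and 4 rising without day 15 replicate 4.

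The same stages were compared in WT colon. The WT groups share no array with the KO groups, but all 36 arrays set the spread in both tests. In WT 315 genes were higher and 194 lower at day 15 than at day 7, 2.98% of the genes tested. Krt5 was 20, 17, 16 and 21 in WT day 15 arrays, against 817, 17, 18 and 205 in WT day 7 arrays, so WT day 7 replicates 1 and 4 also held squamous transcripts, and without them 237 genes were called. Of the KO calls 89.3% had the same sign in WT, and 4155 of 4303 were larger in size in KO, the genotype whose test chose them. Of the 509 genes chosen by the WT test 325 were larger in KO, and of all 17097 genes 11349 were. Called in both and in the same direction were 430 genes, 84.5% of the WT calls and 9.99% of the KO calls. Across the 17097 genes, which are not independent replicates, the 2 differences had r = 0.78 and rho = 0.639. A call in one genotype only is no difference between them. The genotype difference itself, the KO change minus the WT change, passed the test for 9 genes, 0.0526% of the genes tested, 7 with a higher change in KO (0.0409%) and 2 with a lower one (0.0117%). Without the 4 day 7 arrays of both genotypes with Krt5 above 100 it passed for 265 genes, 150 higher and 115 lower.

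**Figure D4:**
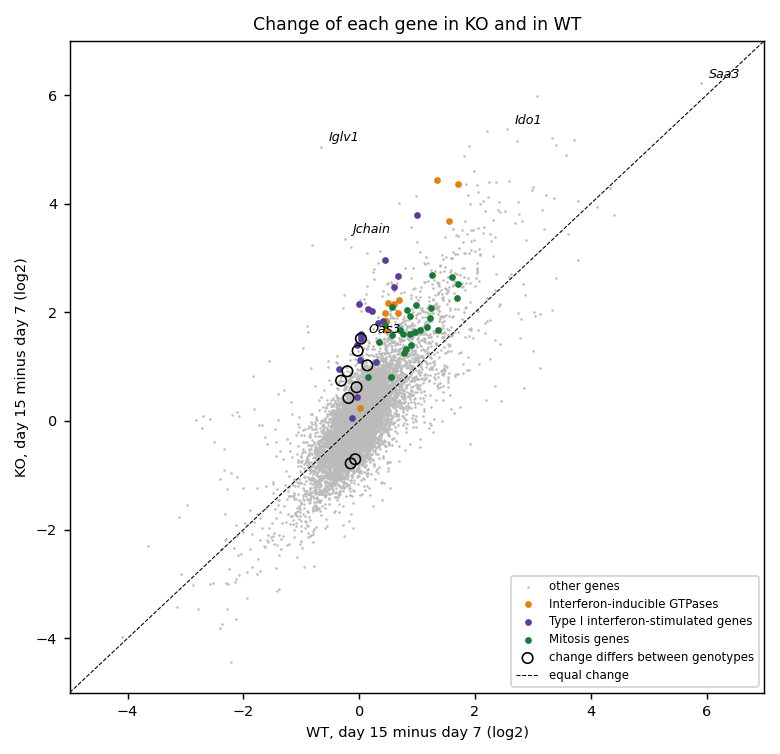
Log2 difference, day 15 minus day 7, of each gene in KO (vertical) against WT (horizontal), with interferon-inducible GTPases, type I interferon-stimulated genes and mitosis genes coloured and the 9 genes with a tested genotype difference circled. The type I genes lie above the line of equal change, with medians of 1.70 in KO and 0.10 in WT.

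Oas3 was the only listed interferon gene among the 9. It had intensities of 50, 47, 39 and 51 in KO day 15 arrays, against 12, 15, 13 and 17 in KO day 7 arrays. In WT it had 16, 14, 14 and 18 in WT day 15 arrays, against 14, 16, 14 and 14 in WT day 7 arrays. All WT arrays were near background at both stages, and the change differed between genotypes by 1.49 ± 0.28, adjusted p = 0.0298. Commd6, of the COMMD family of protein trafficking factors, had 270, 231, 185 and 208 in KO day 15 arrays, against 118, 127, 118 and 120 in KO day 7 arrays, and its change differed by 1.05 ± 0.17, adjusted p = 0.01. Med27, a subunit of the Mediator complex, had 93, 97, 73 and 80 in KO day 15 arrays, against 35, 29, 27 and 29 in KO day 7 arrays and differed by 1.32 ± 0.22, adjusted p = 0.01. In both genes the KO groups did not overlap, while the WT change was -0.31 for Commd6 and -0.03 for Med27. The other 6 were Cwc15, a splicing factor (0.61), Psma1, a proteasome subunit (0.67), Mrps23, a mitochondrial ribosomal protein (1.12), Ywhaq, a 14-3-3 protein (0.88), Cd151, a tetraspanin (-0.64), and Egln1, an oxygen-sensing prolyl hydroxylase (-0.63). Commd6 was past the threshold without each array in turn and no other of the 9 was.

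By list, the KO change exceeded the WT change in 18 of 18 type I interferon genes, with a median excess of 1.51, in 11 of 11 GTPases (1.54) and in 15 of 15 interferon-gamma genes (1.42), where 8301 of all 17097 genes had a positive excess. Except for Oas3, none of these passed the test of the genotype difference. In WT none of the GTPases and type I genes and 1 interferon-gamma gene rose, where 1.84% of all genes rose. Ido1 differed by 5.37 ± 0.78 in KO and 2.56 ± 0.78 in WT (WT adjusted p = 0.068), and Ifi47 by 4.37 ± 0.50 in KO and 1.70 ± 0.50 in WT (WT adjusted p = 0.0562). Iglv1 differed by 5.05 in KO and -0.65 in WT, and the test of the genotype difference gave 5.70 ± 1.37, adjusted p = 0.0877. It passed without KO day 7 replicates 1 and 2 (6.81, adjusted p = 0.0454) and without the 4 day 7 arrays with squamous transcripts (6.99, adjusted p = 0.0323). Jchain in WT had 1555, 2179, 927 and 2307 in WT day 15 arrays, against 1805, 1275, 2924 and 2149 in WT day 7 arrays, so that its WT groups overlapped, and its change differed by 3.60 ± 0.81, adjusted p = 0.0709. This difference passed without KO day 7 replicates 1 and 2 (4.68, adjusted p = 0.0056) and without the 4 day 7 arrays (4.65, adjusted p = 0.0067). Mitosis genes rose in 9 of 25 cases in WT and replication genes in 13 of 25. The Saa3 difference was 6.22 ± 0.89 in KO and 5.91 ± 0.89 in WT.

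Setting day 15 and day 7 among the other KO stages shows where the day 7 level stood. The interferon-inducible GTPases had a mean log2 level in KO of 9.33 ± 0.24 in untreated colon, 6.00 ± 0.24 at day 7, 8.43 ± 0.17 at day 15 and 7.42 ± 0.88 in the tumors (SD over 4 arrays, or 6 for tumors). In WT it was 5.96 ± 0.65 in untreated colon, 6.59 ± 0.31 at day 7, 7.36 ± 0.55 at day 15 and 7.21 ± 0.76 in the tumors. Day 7 was thus the lowest of the KO stages, while untreated WT colon was the lowest of the WT stages. Some arrays of these other stages held squamous transcripts too. The mean log2 level of the squamous markers was 11.12, 5.09, 5.18 and 8.51 in untreated WT arrays. In KO tumors it was 6.82 and 7.32 on replicates 1 and 2 and 5.23 to 5.41 on the rest. The part of squamous tissue in the stage levels here and below was not tested. The type I genes had 7.85 ± 0.54 in untreated colon, 5.81 ± 0.15 at day 7, 7.56 ± 0.15 at day 15 and 6.48 ± 0.95 in the tumors in KO. Ido1 averaged 1481 in untreated colon, 22.8 at day 7, 1121 at day 15 and 589 in the tumors in KO, and 13.2 in untreated colon, 30.2 at day 7, 337 at day 15 and 396 in the tumors in WT. The order of stages in KO is thus untreated, day 15, tumor and day 7 for Ido1, and the tumor arrays spread widely.

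Mitosis genes had a mean log2 level in KO of 7.52 ± 0.27 in untreated colon, 5.62 ± 0.17 at day 7, 7.40 ± 0.43 at day 15 and 7.76 ± 0.37 in the tumors. In WT it was 7.36 ± 0.37 in untreated colon, 5.50 ± 0.24 at day 7, 6.43 ± 0.71 at day 15 and 7.68 ± 0.28 in the tumors. Day 7 was the lowest stage in both genotypes, and the KO day 15 mean was within the SD of untreated KO colon. Single KO arrays spanned 7.08 to 7.99 at day 15 and 7.25 to 7.90 in untreated colon. Smooth muscle genes had 9.78 ± 0.05 in untreated colon, 10.66 ± 0.45 at day 7, 9.18 ± 0.34 at day 15 and 8.47 ± 0.93 in the tumors in KO. Macrophage markers had 6.67 ± 0.21 in untreated colon, 5.26 ± 0.60 at day 7, 8.04 ± 0.97 at day 15 and 7.83 ± 0.58 in the tumors in KO, and plasma cell genes 7.24 ± 0.40 in untreated colon, 5.00 ± 0.30 at day 7, 7.30 ± 0.63 at day 15 and 6.97 ± 0.75 in the tumors. For plasma cell genes the day 15 level was close to the untreated one and day 7 was the lowest, whereas macrophage markers were higher at day 15 than in untreated colon. Cyp2c55 averaged 102 in untreated colon, 1533 at day 7, 95 at day 15 and 640 in the tumors in KO and 2169 in untreated colon, 3014 at day 7, 972 at day 15 and 984 in the tumors in WT, so that untreated KO colon was as low as KO colon at day 15. Levels at these stages are given as descriptions, without a test.

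**Figure D5:**
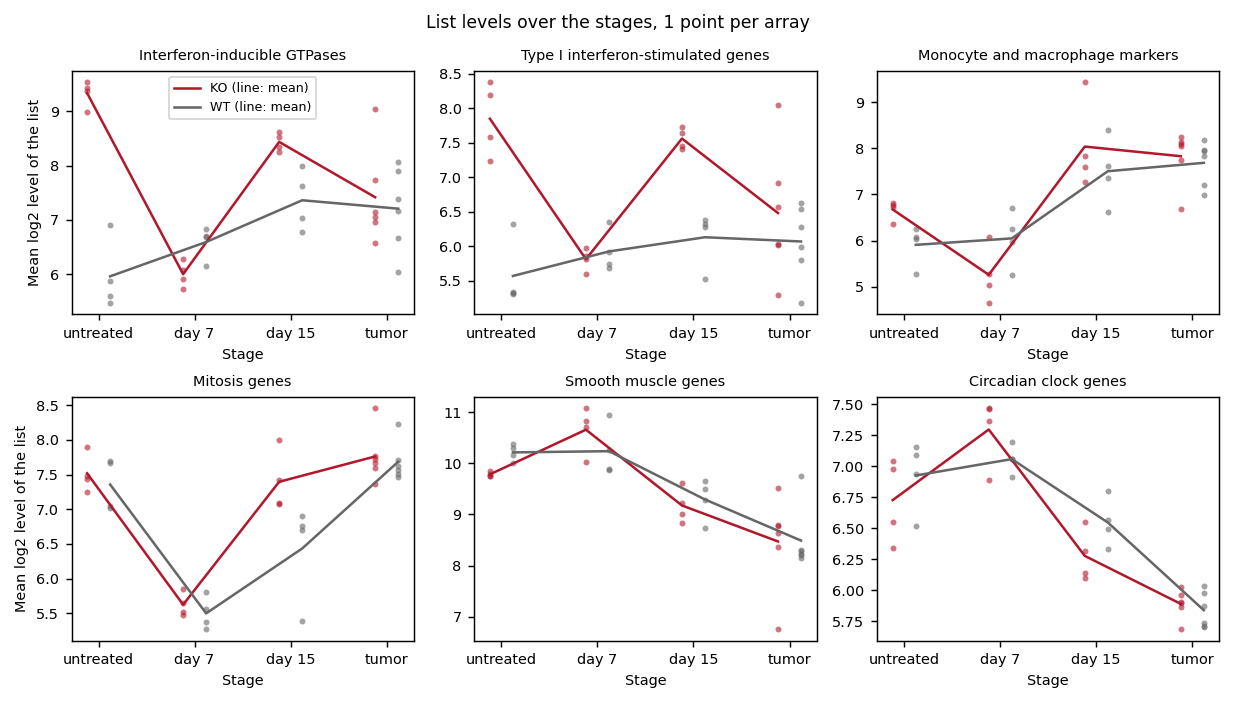
Mean log2 intensity of 6 gene lists over the stages untreated, day 7, day 15 and tumor, with 1 point per array, KO and WT side by side. KO day 7 arrays are the lowest KO arrays for the GTPases, at 6.00 on average, and untreated KO arrays the highest on average.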

How the data were processed

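Colon RNA was labelled with biotin by a 3′ kit and put on Affymetrix HT MG-430 PM arrays, per the labels' protocols. The authors deposited 1 linear intensity per probe set and array, in whole numbers from 4 to 14185. For the background correction, normalization and summarization behind them, the method is not given in the sources used here. No batch is named in the labels.

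Of 45037 probe sets, 28898 had 1 gene symbol, 551 several and 15588 none in the annotation used, and 28689 were matched by gene identifier. Each of 17097 genes was represented by its brightest probe set, by the mean of 36 arrays. Log2(intensity + 1) values were quantile normalized and fitted in R 4.3.3 with limma 3.58.1, with all 36 arrays, 8 group means and an intensity trend in the variance. P-values were adjusted by Benjamini-Hochberg over all genes, with a threshold of 0.05. The procedure was tested on simulated data.

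The members, the 50 lists (871 symbols, 757 measured genes) and the tests were chosen with earlier results of these data known, and lists share some genes. Named by rule were the 12 largest rises and 12 largest falls among called genes without overlap, up to 4 members of each list with the smallest p, the IL-17 list and the genes with a genotype difference. Not all of them are printed. Genes shown for their promoters, Krt5, Krt14, Epcam, S100a8, S100a9, Lcn2, Ifng and Arntl, and Jchain and Iglv1 in the genotype comparison, were named after their values were seen. Of 214 named genes, 61 had a group mean below 16, where the size of a log2 difference depends on the pseudocount. Alternatives were other pseudocounts, scalings, probe set rules, variance models, blocks and arrays left out.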

Additional observations from a re-analysis of the deposited data

Results flagged for a closer look

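Of 428 groups of 4 arrays looked at for the named genes, 32 had an array that stood apart from the other 3 by Dixon's test on normalized log2 values, where chance gives about 1 in 20 groups. On KO day 15 replicate 4, which was also the array with the highest neutrophil markers, these were 11 genes. Most were inflammatory and high there: Saa3 at 8403 (709 to 1034 on the others), Clec4e at 1574 (115 to 156), Csf3 at 212 (10 to 15), Il1r2 at 1749 (98 to 123), Tnf at 104 (14 to 18), Fas at 424 (134 to 138), Plaur at 516 (60 to 79), Il1rn at 2254 (500 to 596) and Alox5 at 31 (12 to 13). Reg4, of enteroendocrine cells, was low there at 367 (2413 to 3055), and Apoa1, at 8 on all 4 arrays, stood apart only in rounding after normalization.

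On KO day 7 replicate 1, the array with Il17rc near the WT level and the highest Krt5, 12 genes stood apart. Lower there were Tppp at 116 (273 to 324), Optc at 81 (271 to 307), Clca1 at 4900 (6270 to 6633), Tnnc2 at 10 (47 to 68), Hadh at 4950 (5272 to 5328), Per3 at 117 (227 to 238) and F11r at 1012 (1363 to 1391). Higher there were Socs3 at 59 (14 to 16), Sfrp2 at 56 (14 to 18), Pla2g4a at 348 (241 to 249), Il1a at 13 (9 on the others) and Hpgds at 14 (11 on the others). On KO day 7 replicate 2 these were Cxcl11 at 8, Batf3 at 14, Il12b at 11, all near background, and Fas at 53 (60 to 66). Prdm1 on KO day 7 replicate 3 was at 16 (17 to 18), a difference of 1 unit near background. On KO day 15 replicate 3 they were Rrm2 at 106 (192 to 208) and Pln at 34 (23 to 29), and on replicate 1 Trpm5 at 8 and Tnnc2 at 7, both near background. The intensities printed are the deposited ones, and those of Pln and of Fas at day 7 do not by themselves set the array that far apart.

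The change from day 7 to day 15 differed between KO and WT, by the test of the difference itself, for 9 genes. On the log2 scale the KO change exceeded the WT change by 1.05 for Commd6, 1.32 for Med27, 0.608 for Cwc15, 1.49 for Oas3, 0.667 for Psma1, 1.12 for Mrps23 and 0.883 for Ywhaq, and was below it by a difference of -0.636 for Cd151 and -0.634 for Egln1. Leaving out each array of the 4 groups in turn ended the call in 2 cases for Med27 and in 8 to 11 for the 7 others.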

How the results depend on the processing

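Leaving out each array in turn gave 3301 to 4512 called genes in KO (4303 with all), 235 to 871 in WT (509) and 1 to 178 for the genotype difference (9). WT had 295, 871 and 235 calls without WT day 15 replicates 2, 3 and 4, and 288 and 287 without WT day 7 replicates 2 and 4. The genotype difference had 178 calls without WT day 7 replicate 1, 77 without KO day 7 replicate 1, 52 and 30 without KO day 15 replicates 3 and 4, and 1 to 10 without any other. Testing every probe set gave 6629 calls among more tests, and fitting only the 2 KO groups gave 2637, with fewer residual degrees of freedom. Leaving out KO day 7 replicates 1 and 2 and KO day 15 replicate 4, chosen after seeing the data, gave 2672. Without WT day 7 replicates 1 and 4, WT had 237 calls. The genotype difference had 37 without KO day 7 replicates 1 and 2 and 265 without the 4 day 7 arrays with Krt5 above 100, and the cause was not tested. The other alternatives kept the KO count within 3231 and 5127, and the share of calls that were higher was 49.3% with quantile normalization, 66.3% with median centring (2642 higher, 1343 lower) and 64.3% unscaled.

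The labels state no pairing of samples. Deviations from the group means were correlated between same-numbered day 15 and day 7 arrays, with -0.101, 0.0237, 0.0324 and -0.311 in KO. In WT the values were -0.0826, 0.114, -0.0689 and 0.00792. No day 15 array had its best such correlation with its own number. With 4 arrays per group, these values cannot show whether samples were paired. With the replicate number as a block, 4229 KO genes, 485 WT genes and 2 genotype differences were called. Of 180 named calls, 134 held without each of the 8 arrays. Leaving out KO day 15 replicate 4 ended 35 and KO day 7 replicates 1 and 2 together 23. Tspan8 turned to -0.16 with the mean of all its probe sets (0.35 otherwise), and Il17rc to 0.022 without the 3 arrays above (-1.76 otherwise). A pseudocount of 16 moved 33 named differences by over 1.5 times. Signals near background limit the small genes.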

Other observations

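Among genes of bile acids and lipids, 2 of 18 rose and 3 fell at day 15 in KO colon, near the 12.4% and 12.8% of all genes. Without day 15 replicate 4, 5 rose and 0 fell, and 0 fell without day 7 replicate 2 or 4 and 1 without day 15 replicate 1. Slc51b, a subunit of the bile acid exporter of the basal membrane, had intensities of 391, 549, 286 and 228 in KO day 15 arrays, against 78, 64, 55 and 51 in KO day 7 arrays (2.34 ± 0.38, adjusted p = 3.95e-05). Scd1, which desaturates fatty acids, differed by 1.53 ± 0.39. The groups of Slc51b did not overlap, and its WT change was 0.49. Of 14 enteroendocrine genes 2 rose, a share near the 12.4% of all genes. Sct, the hormone secretin, had 122, 93, 126 and 67 in KO day 15 arrays, against 21, 13, 14 and 16 in KO day 7 arrays (2.46 ± 0.31, adjusted p = 1.49e-06), and Cck, cholecystokinin, differed by 1.23 ± 0.22. Of 9 adipocyte genes 1 rose and 1 fell, near the shares of all genes, with a median of 0.95. Plin4, a coat protein of fat droplets, fell, with 30, 28, 31 and 41 in KO day 15 arrays, against 75, 162, 212 and 131 in KO day 7 arrays (-2.26 ± 0.39, adjusted p = 8.75e-05). Lpl, lipoprotein lipase, rose by 1.88 ± 0.61. It was not past the threshold without KO day 7 replicates 1 and 2 (adjusted p = 0.0619), without day 15 replicate 4 or without day 7 replicate 4. Of 13 stress genes 2 rose and 2 fell, near the shares of all genes, and 1 array left out moved either count to 1. Hspa5, a chaperone of the endoplasmic reticulum, had 2572, 2056, 1513 and 2431 in KO day 15 arrays, against 1262, 1155, 1028 and 1010 in KO day 7 arrays (0.84 ± 0.14, adjusted p = 4.11e-05), and Hspa1b, an inducible heat shock protein, had 318, 138, 211 and 706 in KO day 15 arrays, against 1305, 854, 789 and 850 in KO day 7 arrays (-1.81 ± 0.43, adjusted p = 0.00252). The groups of Hspa5 did not overlap.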
